A study of Mus musculus with 16 samples.

Results

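R-loops within very long genes were described from DNA:RNA hybrid immunoprecipitation sequencing (DRIP-seq) of NIH/3T3 cells, fibroblasts established from mouse embryos. A peak was taken as a member when its summit, the position of highest signal, lay inside a protein-coding gene longer than 500 kb in the GENCODE M21 annotation of GRCm38 on chr1 to chr19 or chrX. Of 21755 protein-coding genes, 230 passed this length, and they covered 197 Mb, 19% of the protein-coding gene space. Over all 8 peak lists 4601 of 77297 peaks were members, 5.99% of the peaks on these chromosomes, and after overlapping peaks were merged they made 3126 of 50279 regions. The genes ran from 502 kb to 4435 kb with a median of 730 kb, and 59 were over 1 Mb.

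Cells were either wild type (WT) or a CRISPR-Cas9 knockout line (KO) of Xpo4, which encodes the nuclear export receptor exportin 4 and carried the same edit on both copies. Genomic DNA was cut with MseI, DdeI, AluI and MboI and pulled down with the S9.6 antibody, which binds DNA:RNA hybrids. Before the pull-down the DNA was incubated with RNase R (RNaseR+), an exonuclease that degrades linear RNA and leaves circular RNA, or with buffer only (RNaseR-). The RNaseR- peaks are called R-loops here, and the RNaseR+ peaks ciR-loops, after the circular RNA that they are taken to hold. The 4 groups, KO RNaseR-, WT RNaseR-, KO RNaseR+ and WT RNaseR+, had 2 replicate lists each. The labels do not say whether replicates came from separate cultures, so the p-values below measure only the spread between these lists. The KO is a single line, and peak lists hold no expression, so neither the loss of Xpo4 nor fibroblast markers could be checked. The inputs were not analysed here.

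The lists differed in size. KO RNaseR- held 26219 and 32031 peaks in replicates 1 and 2, WT RNaseR- 3885 and 2171, KO RNaseR+ 6372 and 5996, and WT RNaseR+ 271 and 352. The lowest signal that the peak caller expected at any position, recovered from each peak's fold and p and given in fragments, moved with genotype. It was 0.843 and 0.896 in KO RNaseR-, 0.479 and 0.489 in WT RNaseR-, 0.924 and 0.890 in KO RNaseR+, and 0.425 and 0.558 in WT RNaseR+. Its part in the differences in peak number between KO and WT was not tested, and a count at matched levels is given with them. All 3885 peak names in the WT RNaseR- replicate 1 list carried the replicate number 2, although the replicate lists had 0 identical peaks in common. That list was used as replicate 1, as deposited.

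An R-loop forms when RNA pairs with a DNA strand and leaves the other strand single. Hybrids of purine-rich RNA with pyrimidine-rich DNA are the more stable ones. RNA polymerase needs hours to cross the longest mammalian genes, many of which encode synaptic, adhesion and channel proteins, and encounters of transcription with DNA replication in such genes are associated with common fragile sites.

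The sequences below carried the strongest or the most widely called members, or stand for the sequence classes that recurred among them. Each is 200 bases of GRCm38 centred on a summit, written 5′ to 3′ on the coding strand of the gene, and capitals mark its longest uninterrupted run of purines or of pyrimidines. The first 4 are intronic regions called in 6 of the 8 lists (Lrp1b, Cntnap5b, Lrmda and Tenm3), and March1 is shown because it shares sequence with Lrp1b. Mdga2 is the fourth strongest region called in both KO RNaseR- lists, and Atp8a2 and Spag16 were called in both WT RNaseR+ lists.
Lrp1b (chr2:41698113-41698312, minus strand): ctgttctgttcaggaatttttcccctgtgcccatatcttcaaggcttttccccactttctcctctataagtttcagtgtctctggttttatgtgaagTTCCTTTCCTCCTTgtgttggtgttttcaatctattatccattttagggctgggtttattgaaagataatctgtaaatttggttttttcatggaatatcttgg
Cntnap5b (chr1:100180087-100180286, plus strand): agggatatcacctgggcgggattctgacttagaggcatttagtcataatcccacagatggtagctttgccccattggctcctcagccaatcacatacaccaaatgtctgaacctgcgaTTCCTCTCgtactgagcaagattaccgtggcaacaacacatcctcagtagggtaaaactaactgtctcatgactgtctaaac
Lrmda (chr14:22080258-22080457, plus strand): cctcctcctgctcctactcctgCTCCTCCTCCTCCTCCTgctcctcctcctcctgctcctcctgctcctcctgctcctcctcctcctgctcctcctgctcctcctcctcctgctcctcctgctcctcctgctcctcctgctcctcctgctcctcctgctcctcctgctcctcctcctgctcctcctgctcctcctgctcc
Tenm3 (chr8:48247402-48247601, minus strand): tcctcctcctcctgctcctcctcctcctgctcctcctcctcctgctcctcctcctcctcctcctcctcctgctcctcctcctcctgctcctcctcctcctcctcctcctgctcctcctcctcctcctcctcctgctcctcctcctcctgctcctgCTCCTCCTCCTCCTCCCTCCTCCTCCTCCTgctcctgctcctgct
March1 (chr8:65974967-65975166, plus strand): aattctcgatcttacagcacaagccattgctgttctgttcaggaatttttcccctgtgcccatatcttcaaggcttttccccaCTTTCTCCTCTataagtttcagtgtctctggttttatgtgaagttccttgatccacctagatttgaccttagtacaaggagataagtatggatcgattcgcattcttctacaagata
Mdga2 (chr12:66849991-66850190, minus strand): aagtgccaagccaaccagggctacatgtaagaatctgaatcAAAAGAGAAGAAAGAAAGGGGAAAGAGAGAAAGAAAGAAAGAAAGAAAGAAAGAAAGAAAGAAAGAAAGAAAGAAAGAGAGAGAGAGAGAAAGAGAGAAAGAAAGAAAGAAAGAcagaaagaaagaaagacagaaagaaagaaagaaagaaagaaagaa
Atp8a2 (chr14:60041417-60041616, minus strand): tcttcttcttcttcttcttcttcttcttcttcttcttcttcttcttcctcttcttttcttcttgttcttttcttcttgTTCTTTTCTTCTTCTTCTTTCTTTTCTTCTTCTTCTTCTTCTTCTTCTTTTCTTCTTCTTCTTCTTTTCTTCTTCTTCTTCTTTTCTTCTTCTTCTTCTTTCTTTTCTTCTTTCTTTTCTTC
Spag16 (chr1:69985376-69985575, plus strand): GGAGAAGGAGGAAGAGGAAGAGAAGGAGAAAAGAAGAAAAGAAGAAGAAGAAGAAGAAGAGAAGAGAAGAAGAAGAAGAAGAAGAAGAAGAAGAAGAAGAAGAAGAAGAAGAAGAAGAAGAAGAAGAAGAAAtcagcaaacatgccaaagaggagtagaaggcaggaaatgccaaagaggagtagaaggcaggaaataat

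The Lrp1b and March1 windows shared an identical stretch of 103 bases, soft-masked as repeat in the reference, which had 6000 exact copies on chr1 to chr19 and chrX and 481 in the very long genes. Lrmda and Tenm3 consisted mainly of CTCCTG and CTCCTC units. Mdga2 held a purine run of 114 bases, Spag16 one of 132 bases and Atp8a2 a pyrimidine run of 122 bases.

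R-loops were called in every very long gene in KO cells, and their density was lower than in other genes in 6 of the 8 lists. The KO RNaseR- lists held 1495 and 1876 member peaks, the WT RNaseR- lists 306 and 147, the KO RNaseR+ lists 361 and 385, and the WT RNaseR+ lists 10 and 21. Members made up 5.72% and 5.88% of the peaks on chr1 to chr19 and chrX in KO RNaseR-, 8.01% and 6.94% in WT RNaseR-, and 5.76% and 6.52% in KO RNaseR+. In WT RNaseR+ they made up 3.85% (95% Wilson interval 2.10% to 6.93%) and 6.18% (4.07% to 9.26%). Per Mb, very long genes held 7.59 and 9.53 peaks in KO RNaseR- against 12.0 and 14.6 in other protein-coding genes. In KO RNaseR+ the densities were 1.83 and 1.95 against 3.06 and 2.52, and in WT RNaseR+ 0.0508 and 0.107 against 0.107 and 0.127. WT RNaseR- was the exception, with 1.55 and 0.746 in very long genes against 1.29 and 0.744 in the others. In its replicate 2, 20 of the 147 member peaks lay in Gm20388, a gene model that holds 71 other protein-coding genes.

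The log2 ratio of the density in very long genes to that in other genes was -0.67 and -0.61 in KO RNaseR-, 0.27 and 0.0046 in WT RNaseR-, -0.74 and -0.37 in KO RNaseR+, and -1.08 and -0.26 in WT RNaseR+. Its mean over the 8 lists was -0.43, a density 0.742 times that of other genes (exact two-sided sign-flip test, p = 0.0469; 0.0926 after Benjamini-Hochberg adjustment over the 15 tests run here). The sign-flip tests treat the 8 lists as units although 4 share the KO line. The unadjusted p rose to between 0.0625 and 0.0938 without any 1 of 6 lists (both KO RNaseR-, both KO RNaseR+ or both WT RNaseR+ replicates). Against positions outside protein-coding genes, where KO RNaseR- held 9.08 and 11.2 peaks per Mb, the mean log2 ratio was -0.28 (exact two-sided sign-flip test, p = 0.0156, adjusted p = 0.0469).

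In KO RNaseR-, density was highest in the shortest genes and level above 300 kb. It was 20.4 ± 2.74 peaks per Mb (mean ± SD, n = 2, as below) in genes up to 50 kb, 11.4 ± 1.59 from 50 to 200 kb and 9.46 ± 1.18 from 200 to 300 kb. Genes of 300 to 500 kb held 8.29 ± 0.952, genes of 500 kb to 1 Mb 8.38 ± 1.32 and genes over 1 Mb 8.80 ± 1.43, which differed by less than the SD. Mean GC content fell over the same classes from 45.4% to 39.9%, and its part in the densities was not tested. In introns only, the KO RNaseR- density went from 17.0 in genes up to 50 kb to 8.51 and 8.41 in the pair of classes over 500 kb. In WT RNaseR- the mean densities were 1.06 ± 0.409 in genes up to 50 kb and 1.43 ± 0.701 over 1 Mb.

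**Figure D1:**
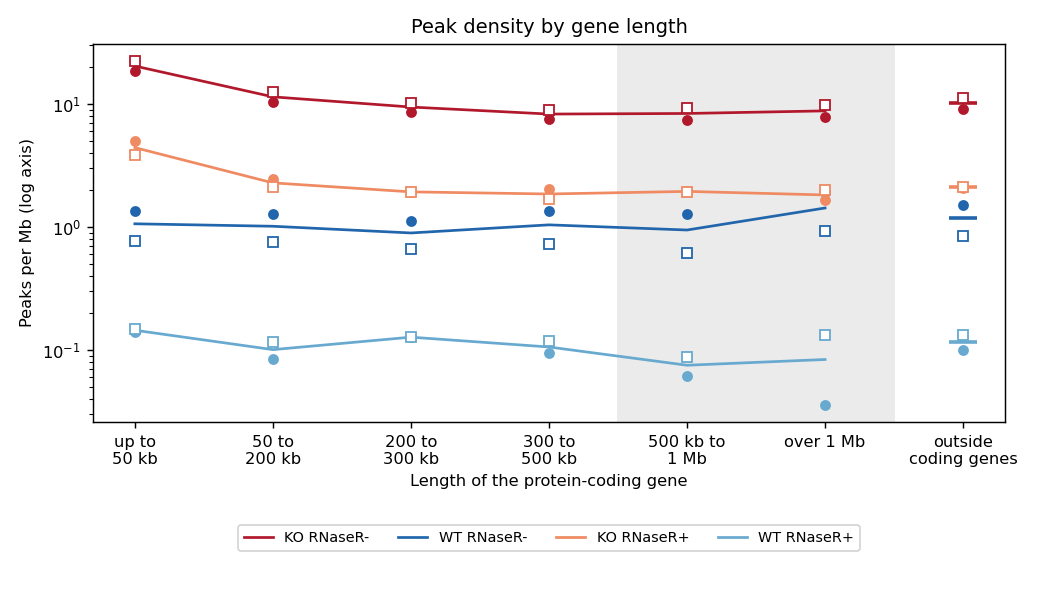
Peaks per Mb (log axis) by class of gene length and outside protein-coding genes, for the 4 groups. Filled circles are replicate 1, open squares replicate 2 and lines the mean of the 2 replicates; the shaded classes are the very long genes. KO RNaseR- fell from 20.4 to 8.80 peaks per Mb between the shortest and the longest class, while WT RNaseR- stood at 1.06 and 1.43.

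The limit of 500 kb cut through a continuous range. Just inside it, the KO RNaseR- means were 3.99 peaks per Mb in Edil3, 6.96 in Dock1, 12.9 in Car10, 6.94 in Stpg2 and 1.98 in Fgf13. Just outside it they were 12.0 in Pde1c, 14.1 in Dnm3, 6.08 in Cacna1e, 7.11 in Abca13 and 10.2 in Gabrb1, so values on either side overlapped.

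Peak numbers in very long genes were higher in KO than in WT cells in both treatments, with no overlap between the groups. For R-loops the geometric mean ratio was 7.90-fold (log2 2.98), and the ratios of same-numbered lists were 4.89 and 12.8. The exact two-sided permutation test gave p = 0.333, the smallest that 2 lists against 2 allow. For ciR-loops the ratio was 25.7-fold (log2 4.69, exact permutation p = 0.333), resting on 10 and 21 WT peaks. With genotypes permuted within treatment the ratio was 14.3-fold (exact two-sided p = 0.0556, the smallest of 36 arrangements, adjusted p = 0.0926). KO peaks were then scaled down to the expected level of the same-numbered WT list and kept only where their p still passed. The scaling factors were 0.568 and 0.546 in RNaseR- and 0.460 and 0.627 in RNaseR+. These levels are not read depth, so depth was not matched. By the paper's reporting summary, both KO RNaseR- pull-downs had more uniquely mapped reads than both WT RNaseR- pull-downs. In RNaseR+ the genotypes overlapped in reads. After the scaling the ratio was 4.51-fold for R-loops and 8.42-fold for ciR-loops, and the part of read depth in these ratios was not tested. With only peaks called in both replicates the unscaled ratio was 25.6-fold and 20.2-fold, resting on 30 WT RNaseR- and 6 WT RNaseR+ merged regions. In other protein-coding genes the unscaled ratios were 13.5-fold and 23.8-fold, and outside genes 8.89-fold and 18.3-fold.

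Fewer peaks were called in very long genes after RNase R in both genotypes, and the lists did not overlap. RNaseR+ lists held 4.49-fold fewer member peaks than RNaseR- lists in KO cells and 14.6-fold fewer in WT cells. Over both genotypes the number was 8.11-fold lower (exact two-sided permutation test within genotype, p = 0.0556, the smallest possible, adjusted p = 0.0926).

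The density ratio of very long to other genes was also compared between genotypes and treatments. In RNaseR- the log2 density ratio was lower in both KO lists than in both WT lists, by 0.77 on average (exact permutation p = 0.333). In RNaseR+ the KO mean was higher than the WT mean by 0.11 and the lists overlapped. Within treatment strata the KO minus WT difference was -0.33 (exact two-sided permutation p = 0.333, adjusted p = 0.357), and it was -0.01 with intronic positions only. The RNaseR+ minus RNaseR- difference within genotypes was -0.36 (exact two-sided permutation p = 0.278, adjusted p = 0.357).

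Nearly all very long genes had more R-loops in both KO lists than in both WT lists. This held for 214 of 230 genes (93.0%) in RNaseR-, where 53.9% of all 9051 protein-coding genes with a peak did the same. Among genes with at least 5 peaks over the 4 lists it held for 200 of 212 very long genes (94.3%), beside 89.2% of all 1654 protein-coding genes of that kind. The reverse order, WT above KO, was found in 0 of the 230 genes against a background of 0.398%. For ciR-loops KO was above WT in 115 of the 191 very long genes with a peak (60.2%), against 35.8% of 3148 genes. Among genes with at least 5 peaks over the 4 lists it held for 63 of 66 very long genes (95.5%), beside 88.3% of all 162 protein-coding genes of that kind. WT above KO was again found in 0 genes (background 0.445%). Both counts are descriptions, since 2 lists against 2 give no test for a single gene. The KO RNaseR- pull-downs also had more uniquely mapped reads than the WT RNaseR- ones, and the part of this in the counts was not tested.

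The 16 genes without this order in RNaseR- were St6galnac3, Lhfpl3, Tmem132d, Cadps2, Sgcz, Galntl6, March1, Pard3, Thsd4, Nkain2, Car10, Rad51b, Ptprn2, Mctp1, Ptprg and Arhgap6. Galntl6, a member of the polypeptide N-acetylgalactosaminyltransferase family, held 7 and 12 peaks in KO RNaseR- and 7 and 1 in WT RNaseR-. The first WT list therefore reached the level of the first KO list.

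Per gene, merged KO RNaseR- regions had a median of 12.3 per Mb (interquartile range 8.67 to 17.1), from 1.54 in Mctp1 to 27.6 in Dpp10. The medians were 1.41 in WT RNaseR-, 2.51 in KO RNaseR+ and 0 in WT RNaseR+. All 230 genes had a KO RNaseR- region, 150 a WT RNaseR- region, 191 a KO RNaseR+ region and 18 a WT RNaseR+ region. Across the 230 genes, which share libraries and are not independent, the number of KO RNaseR- regions followed length with a Spearman rho of 0.62, and the number per Mb followed GC content with a rho of 0.03.

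**Figure D2:**
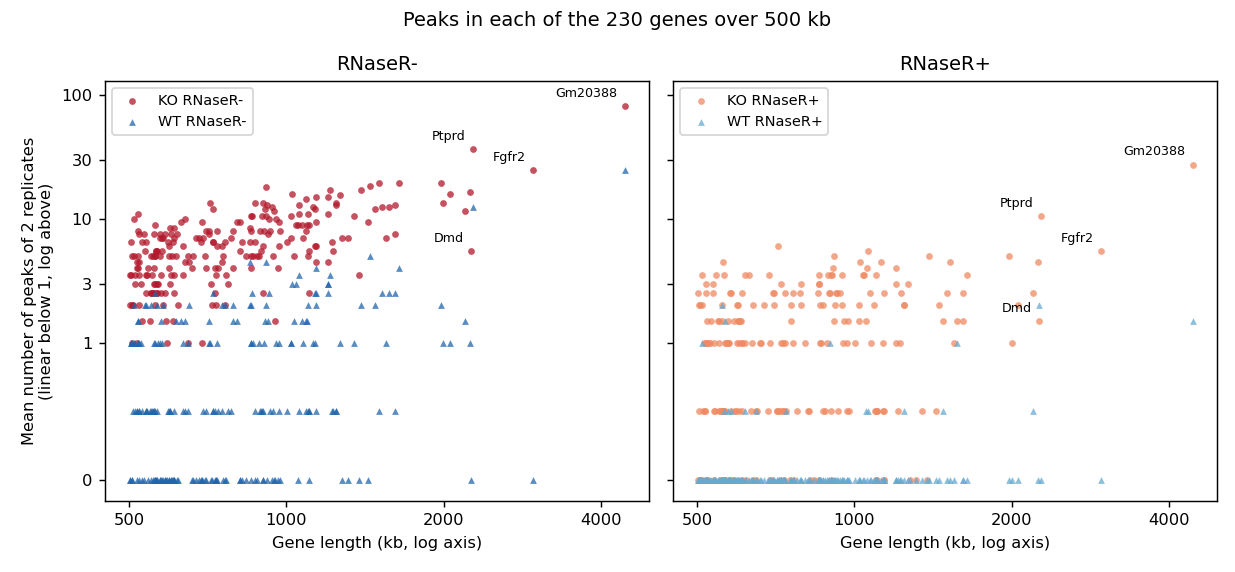
Mean number of peaks of 2 replicates (linear below 1, log above) against gene length (kb, log axis) for each of the 230 very long genes, RNaseR- at left and RNaseR+ at right. Circles are KO and triangles WT; KO lists held more peaks than WT lists in 214 genes in RNaseR- and in 115 in RNaseR+.

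The gene models with the most regions included ones that span other genes. Gm20388, a gene model of 4435 kb that holds 71 other protein-coding genes, had 74 and 88 peaks in KO RNaseR-, 30 and 20 in WT RNaseR-, 24 and 31 in KO RNaseR+, and 1 and 2 in WT RNaseR+. The 2961 kb model of Fgfr2, a fibroblast growth factor receptor, holds 29 other coding genes and had 23 and 27 peaks in KO RNaseR-, none in WT RNaseR-, 6 and 5 in KO RNaseR+ and none in WT RNaseR+. In all, 6 models held 5 or more other coding genes, 27 held 1 to 4 and 197 held none.

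Among genes that hold no other coding gene, Ptprd, a receptor tyrosine phosphatase that organises synapses, had the most regions. It spans chr4:75941238-78211961 on the minus strand and had 35 and 39 peaks in KO RNaseR-, 16 and 9 in WT RNaseR-, 11 and 10 in KO RNaseR+, and none in WT RNaseR+. Its KO values exceeded its WT values in each treatment, and 21 of its 53 KO RNaseR- regions were called in both replicates. Dlg2, a synaptic scaffold, had 13 and 26 KO RNaseR- peaks against 3 and 1 in WT RNaseR-, and 5 and 5 in KO RNaseR+. Csmd1, a complement regulator of the CUB and Sushi domain family, had 17 and 22 against 7 and 1, with 3 and 4 in KO RNaseR+. Dlg2 and Csmd1 had no WT RNaseR+ peak.

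The cAMP phosphodiesterases Pde4d and Pde4b were both rich in KO R-loops. Pde4d had 14 and 25 peaks in KO RNaseR- against 1 and 0 in WT RNaseR-. Pde4b, at 520 kb one of the shorter genes here, had 8 and 14 against 2 and 1, and the highest density of regions called in both KO RNaseR- replicates, 15.4 per Mb. Adamtsl1, an ADAMTS-like matrix protein, followed with 12.0 per Mb (12 and 24 peaks in KO RNaseR-, 5 and 4 in WT RNaseR-, 6 and 4 in KO RNaseR+). Cpq, carboxypeptidase Q, had 11.7 per Mb, and the neurexin family member Cntnap5b 11.2 per Mb. Cntnap5b also had the highest density of KO RNaseR+ regions, 14 per Mb, with 6 and 6 peaks there, 14 and 13 in KO RNaseR- and 1 and 1 in WT RNaseR-. Dpyd, dihydropyrimidine dehydrogenase, had 11 and 16 peaks in KO RNaseR-, none in WT RNaseR-, and 1 and 0 in KO RNaseR+. R-loop and ciR-loop densities therefore did not always go together.

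The lowest densities over all 8 lists were in Ptprg, Fat3, Clstn2, Elmo1, Fgf13 and Edil3, each with 2 merged regions. Ptprg, a receptor tyrosine phosphatase like Ptprd, had 0 and 2 peaks in KO RNaseR- and none elsewhere. Elmo1, an engulfment and motility adaptor, had 1 and 1 in KO RNaseR- and 1 and 0 in KO RNaseR+.

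**Figure D3:**
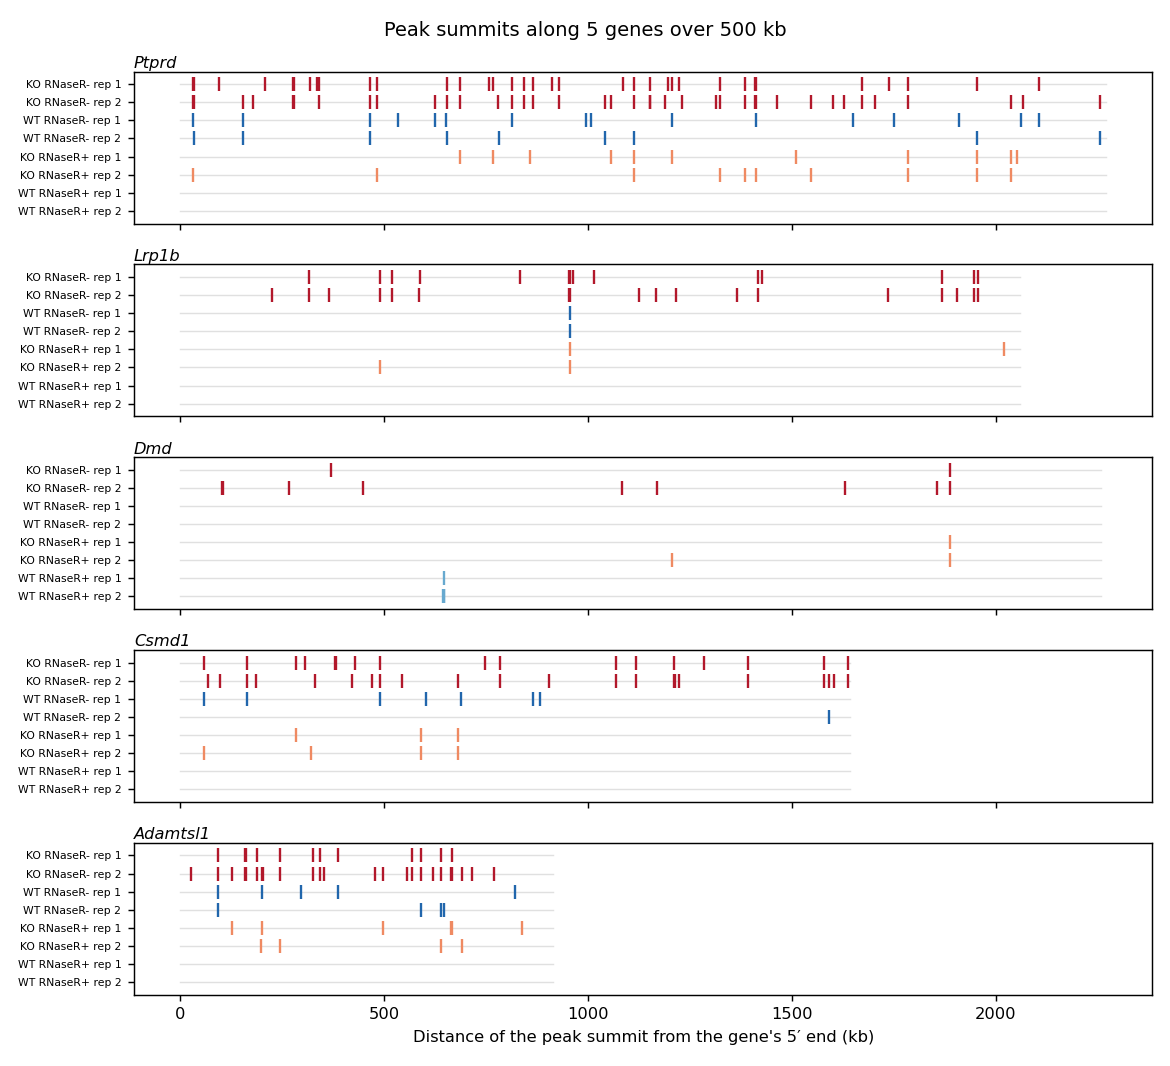
Distance of each peak summit from the gene's 5′ end (kb) in 5 very long genes, with a line per list. Each tick is a summit; Ptprd has 35 and 39 ticks in KO RNaseR- against 16 and 9 in WT RNaseR-, and in Dmd the WT RNaseR+ ticks (1 and 3) lie close together.

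Median KO RNaseR- densities of 4 gene lists lay close together. The lists were chosen for this report and share genes, among them Auts2, Fhit and Cntnap2, and expression was not measured. The 25 genes at common fragile sites had a median of 12.9 KO RNaseR- regions per Mb, the 51 neuronal adhesion and axon guidance genes 13.1, the 17 ion channel and receptor genes 13.0, and the 28 widely expressed genes 13.4, beside 12.3 over all 230. KO was above WT in both lists of RNaseR- in 24 of 25 (96.0%), 50 of 51 (98.0%), 17 of 17 and 25 of 28 (89.3%), beside 93.0% of all 230. Median KO RNaseR+ densities were 1.64, 3.04, 1.82 and 2.71 per Mb in the same order, beside 2.51 over all 230, and median WT RNaseR- densities were 1.37, 1.76, 1.81 and 1.52, beside 1.41. Single members varied. Fhit had 6 and 9 KO RNaseR- peaks and 0 and 1 in WT RNaseR-, Lsamp 8 and 15 against 1 and 2, and Auts2 12 and 6 against 1 and 0.

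Most regions were called in few lists. Of the 3126 regions, 2068 (66.2%) were called in 1 list, 773 in 2, 183 in 3, 79 in 4, 18 in 5 and 5 in 6, and none in 7 or 8. KO lists alone held 2687 (86.0%), WT lists alone 259 (8.29%), and both genotypes 180 (5.76%). Recurrence within a group was counted on regions merged over its 2 lists alone. Of 2603 such regions with a KO RNaseR- peak, 767 were in both replicates, 29.5% (95% Wilson interval 27.7% to 31.2%), beside 34.8% (34.1% to 35.5%) in other genes. For KO RNaseR+ it was 121 of 625, 19.4% (16.5% to 22.6%), beside 25.9% (24.5% to 27.3%), and for WT RNaseR- 30 of 423, 7.09% (5.01% to 9.94%), beside 11.6% (10.1% to 13.4%). These intervals cover counting error only. Replicates thus shared a smaller part of their regions in very long genes than in other genes in these 3 groups, and no test was made.

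In the merge over all 8 lists, of the 625 regions with a KO RNaseR+ peak, 361 (57.8%, 53.9% to 61.6%) also had a KO RNaseR- peak, compared with 68.2% (66.6% to 69.6%) in other genes. Of the 422 regions with a WT RNaseR- peak, 162 (38.4%) had a KO RNaseR- peak, compared with 41.0% in other genes.

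Of the regions called in both KO RNaseR- lists, the one with the highest fold lay in an intron of Lrp1b, a giant LDL receptor family member, at chr2:41698204-41698530. Its fold over the expected level was 61.6 and 64.7 in KO RNaseR-, 17.6 and 12.5 in WT RNaseR-, and 43.3 and 81.1 in KO RNaseR+, and it was not called in WT RNaseR+. This locus holds the repeat stretch of 6000 copies shown above. The authors had removed reads without a unique position and reads with many mismatches, and the part of other copies in the signal was not tested. An intronic region of Cntnap5b at chr1:100179984-100180636, which was 18.3% soft-masked, had folds of 26.8 and 33.5 in KO RNaseR-, 14.2 and 11.2 in WT RNaseR-, and 34.3 and 23.9 in KO RNaseR+. In both regions each KO fold was higher than each WT fold. Folds were not adjusted for read depth, which differed between the genotypes in RNaseR-. The region of Prkg1, a cGMP-dependent kinase, at chr19:31084129-31084845 had folds of 28.0 and 43.0 in KO RNaseR- and 25.4 and 28.0 in KO RNaseR+ and no WT peak. Its summit lay in the exon of Cstf2t (chr19:31082837-31087069, plus strand), an intronless gene for a cleavage stimulation factor nested in Prkg1.

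The other 3 regions of 6 lists were CTCCTG arrays in introns of Lrmda, Csmd2 and Tenm3. The Lrmda region (chr14:22080025-22080677) had folds of 4.74 and 4.01 in KO RNaseR-, 6.76 and 7.95 in WT RNaseR-, and 6.24 and 4.93 in KO RNaseR+. Here both WT folds were above both KO RNaseR- folds. Csmd2 and Tenm3 were each called in WT RNaseR+ replicate 2 as well, with folds of 10.3 and 8.98. At least 10 copies of CTCCTG on either strand stood in the 300 bp around 5 and 5 member summits in KO RNaseR-, 5 and 4 in WT RNaseR-, 8 and 7 in KO RNaseR+, and 0 and 4 in WT RNaseR+. These were 0.334% and 0.267%, 1.63% and 2.72%, 2.22% and 1.82%, and 0% and 19% of the members, beside 0.00853% of 656365 windows of the same length over the very long genes. This motif was chosen after the regions had been seen.

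Regions called in both WT RNaseR+ replicates numbered 6, in Atp8a2 (2 regions), Spag16, Gm20388, Fam155a and Dmd, and 4 of them were in no other group. In Atp8a2, a phospholipid flippase, chr14:60040389-60040860 had folds of 15.2 and 16.0, and chr14:60041270-60041817 had 10.2 and 9.38. The first lay within 1000 bp of the start of the pseudogene Gm9013. In Spag16, an axoneme protein, chr1:69985230-69985664 had folds of 10.4 and 8.48 in WT RNaseR+ and 7.91 in KO RNaseR- replicate 2. Uninterrupted purine or pyrimidine runs in the 300 bp around these 3 summits were 245, 172 and 138 bases long.

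Long purine or pyrimidine runs, as in the Mdga2 sequence above, recurred among the members. A run of at least 20 bases was present in the 300 bp around 74.2% (1110) and 74.2% (1392) of member summits in KO RNaseR-, 49.3% (151) and 50.3% (74) in WT RNaseR-, and 71.2% (257) and 66.8% (257) in KO RNaseR+. In WT RNaseR+ it was 60.0% (6 of 10; 95% Wilson interval 31.3% to 83.2%) and 52.4% (11 of 21; 32.4% to 71.7%). Windows of the same length tiled over the very long genes held such a run in 7.40%. The mean excess was 54.9 percentage points and was above 0 in 8 of 8 lists (exact two-sided sign-flip test, p = 0.00781, the smallest possible, adjusted p = 0.0293). In other protein-coding genes the share was 53.4% and 53.3% in KO RNaseR- and 46.8% and 48.1% in KO RNaseR+, over a background of 7.83%. In the WT RNaseR- lists it was 50.4% and 43.8%. Outside protein-coding genes it was 72.3% and 71.8% in KO RNaseR- and 70.1% and 69.4% in KO RNaseR+, over a background of 7.90%, which lay close to the shares in very long genes. The run length was chosen after the first regions had been seen.

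Members also had fewer cutting sites of the 4 enzymes (TTAA for MseI, CTNAG for DdeI, AGCT for AluI and GATC for MboI). The 300 bp windows held 9.5 and 9.1 sites per kb in KO RNaseR-, 12.1 and 11.7 in WT RNaseR-, 8.2 and 7.6 in KO RNaseR+, and 2.0 and 2.2 in WT RNaseR+, beside 18.5 over the whole very long genes. The mean difference was -10.7 sites per kb. The soft-masked share was higher by 37.6 percentage points and GC content by 4.03 points. Each had an exact two-sided sign-flip p of 0.00781 (adjusted p = 0.0293) and the same direction in 8 of 8 lists. The GC excess was 1.47 and 1.46 points in KO RNaseR-, and highest, 7.84, in WT RNaseR+ replicate 2 with its 21 members. In other protein-coding genes it was 3.29 and 3.26 in KO RNaseR-. In KO RNaseR- the windows with a run held 8.99 and 8.49 sites per kb and those without 11 and 10.7, so both kinds were below the whole genes. Summits elsewhere showed the same direction, with 11.4 and 11.1 sites per kb in other protein-coding genes in KO RNaseR- (18.8 over their whole sequence) and 9.48 and 9.15 outside genes (17.5). Fragments with few cutting sites are longer after the digest, and soft-masked sequence is harder to map; the part of either in the calls was not tested.

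**Figure D4:**
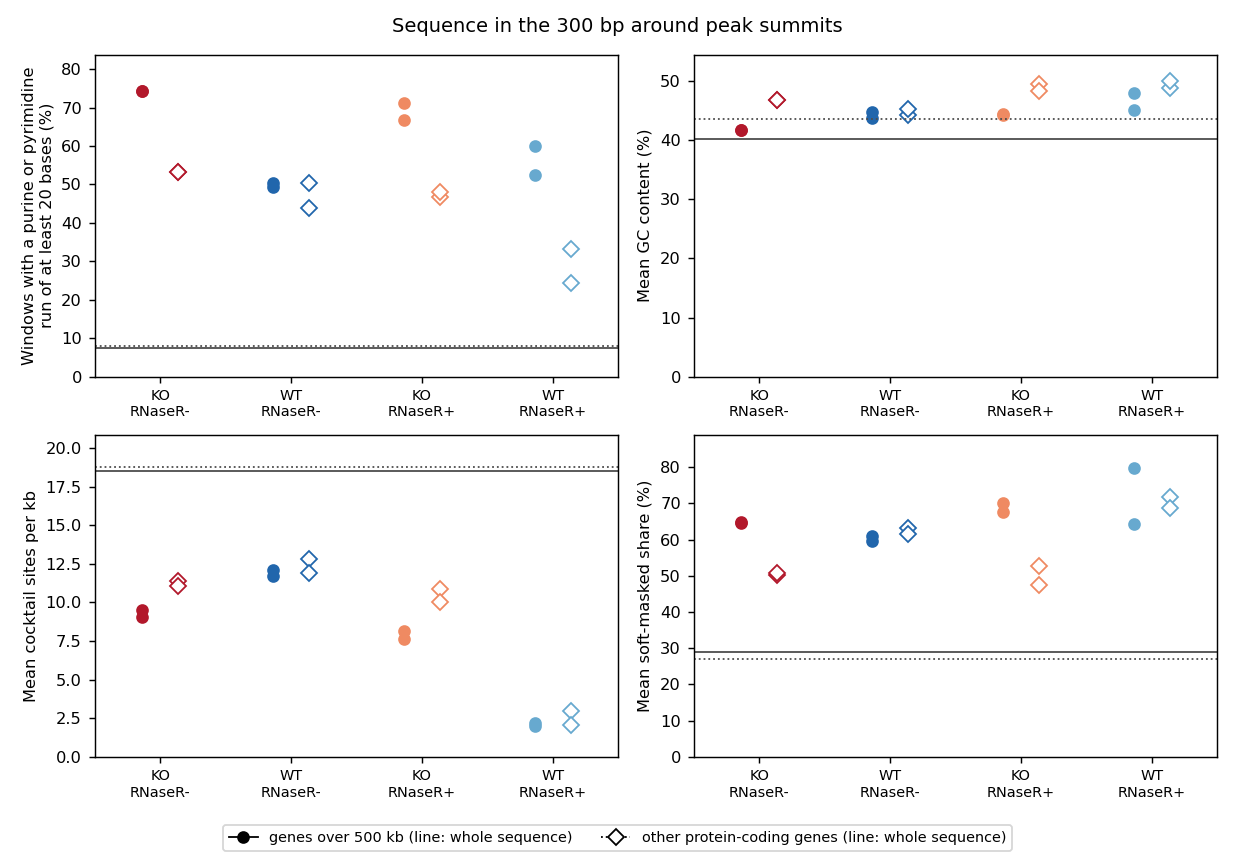
Sequence in the 300 bp around peak summits, per list: windows with a purine or pyrimidine run of at least 20 bases (%), mean GC content (%), mean cutting sites per kb and mean soft-masked share (%). Filled circles are very long genes and open diamonds other protein-coding genes, and the solid and dotted lines are their whole sequences; in KO RNaseR- 74.2% of windows in very long genes held a run against 7.40% of the sequence.

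Very long and other genes were then compared separately in sequence with and without runs. Among 300 bp windows with a run, KO RNaseR- held 22.9 and 28.7 peaks per 1000 windows in very long genes and 24.7 and 29.8 in other genes. Over the 8 lists the log2 ratio was 0.17 (exact two-sided sign-flip p = 0.219, adjusted p = 0.328). Among windows without a run, KO RNaseR- held 0.634 and 0.797 per 1000 in very long genes and 1.83 and 2.21 in other genes, and the ratio over the 8 lists was -1.04 (exact two-sided sign-flip p = 0.0234, adjusted p = 0.0586). It was below 0 in 7 of 8 lists. The exception was WT RNaseR- replicate 1, with 0.255 against 0.209. The difference between the ratios with and without runs was not tested. The windows were not limited to introns. In KO RNaseR-, promoters held 19.5% and 19.3% of peaks in other genes against 4.15% and 3.57% in very long genes. Their part in the rates was not tested.

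**Figure D5:**
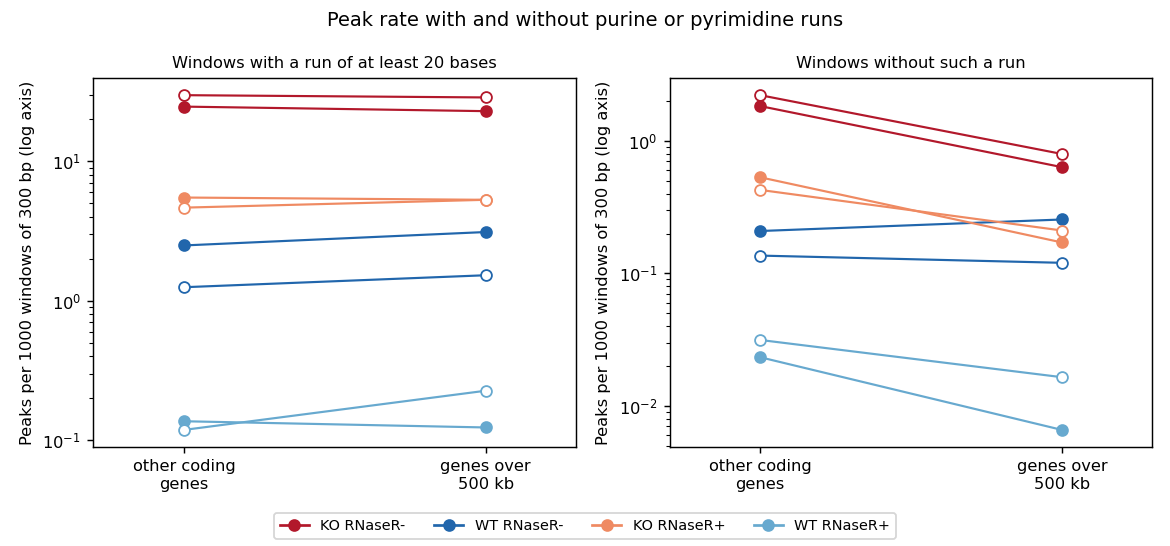
Peaks per 1000 windows of 300 bp (log axes) in other coding genes and in very long genes, for windows with a purine or pyrimidine run of at least 20 bases (left) and without (right). Filled circles are replicate 1 and open circles replicate 2; in KO RNaseR- the rate without a run was 1.83 and 2.21 in other genes and 0.634 and 0.797 in very long genes.

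The strand of the runs was set against that of the gene. The purines lay on the coding strand, as in Mdga2 and Spag16, in 48.0% and 46.6% of the run-bearing members in KO RNaseR-, 37.7% and 43.2% in WT RNaseR-, 51.0% and 45.5% in KO RNaseR+, and 33.3% and 63.6% in WT RNaseR+, beside 45.3% of run-bearing windows in these genes. The mean difference was 0.85 percentage points (exact two-sided sign-flip p = 0.805) and turned to -1.65 without WT RNaseR+ replicate 2. In KO RNaseR-, 55.0% and 43.7% of peaks with a run overlapped a peak of the other replicate, against 40.8% and 33.1% of those without. WT RNaseR- had the opposite order, with 7.95% and 16.2% of peaks with a run against 11.6% and 24.7% of those without.

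Members lay along the whole length of the genes and mostly in introns. Introns held 94.2% and 94.9% of KO RNaseR- members and between 90.0% and 93.0% in the other lists. Introns made up 108 of 113 Mb in the genes of 500 kb to 1 Mb and 80.3 of 83.7 Mb in those over 1 Mb, so the members' share was near that of the sequence. Promoters, taken as within 1000 bp of a transcript start, held 4.15% and 3.57% of members in KO RNaseR-, against 19.5% and 19.3% of the peaks in other genes. Exons and promoters are a larger part of shorter genes, where introns made up 153 of 242 Mb in genes up to 50 kb. The promoter shares were not set against the promoter share of the sequence. In the 224 models without 5 or more nested genes, each of 5 equal stretches of the gene held between 18.5% and 22.2% of KO RNaseR- members. The first 10 kb held 0.941% and 0.863% of them, beside 1.19% of the length.

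On chrX, the 12 very long genes held 2.17 and 4.26 peaks per Mb in KO RNaseR-, against 7.91 and 9.84 in those of the autosomes. In WT RNaseR- it was 0.181 and 0 against 1.64 and 0.791, and in KO RNaseR+ 0.181 and 0.362 against 1.93 and 2.05. The mean KO RNaseR- density of very long genes on chrX (3.22 per Mb) was the lowest of the 20 chromosomes, as was that of its other protein-coding genes (5.17 per Mb). WT RNaseR+ had the opposite order, 0.0906 and 0.272 on chrX against 0.0484 and 0.0968, from 1 and 3 chrX peaks, all in Dmd, the dystrophin gene. Dmd had 2 and 9 peaks in KO RNaseR- and none in WT RNaseR-. The number of X chromosomes in these cells was not measured.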

How the data were processed

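The authors aligned paired reads to GRCm38 with Bowtie2 and called peaks in each replicate with MACS2 at a q of 0.001; SAMtools 1.1 is named in the submitters' processing notes. The control given to the caller is not given in the sources used here, and the spiked-in E. coli DNA was not analysed here. Each of the 8 deposited lists gives positions, a fold enrichment over the expected level (a ratio), a p and a q as −log10 values, and a score. The deposited score was not used, and the deposited fold and −log10 p and q described and filtered peaks. The lists hold no read counts, so depth entered here only through the expected level. A whole summit height satisfied the deposited fold and p of 76938 of 77297 peaks (tolerance 0.0001). The lowest expected level per list was read from these peaks. The paper's reporting summary gives uniquely mapped reads per library, which were not used here. In RNaseR- both KO pull-downs had more of these reads than both WT pull-downs, and in RNaseR+ the genotypes overlapped. More peaks are called where a library is deeper, so density ratios were taken within lists.

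Summits were placed on GENCODE M21 genes, overlapping peaks were merged over lists, and 300 bp windows were read from the reference. The list was the replicate. Tests were exact sign-flip or permutation tests over lists, two-sided, adjusted over 15 tests by Benjamini-Hochberg and tested on simulated data. Same-numbered lists did not deviate together gene by gene (correlations over 230 genes from -0.038 to 0.018). Counts per gene were small in most groups, so this cannot show whether same-numbered lists are paired. The main tests did not pair them. Genes were named as those with the most or densest regions per group, the longest, those of lowest density, and the longest of each gene list, and regions as those of most lists or of highest fold in both replicates of a group. One gene that this rule names is not reported here. The members, gene lists and tests were chosen with earlier results of these data known. The runs, CTCCTG, the rates with and without runs and the comparison with positions outside genes were added after seeing the data. Alternatives were other length limits, overlap rules, stricter peaks, matched levels and leaving out each list. Python 3.11.15, numpy 2.4.6, pandas 2.3.3, scipy 1.17.1, matplotlib 3.10.9 and bedtools 2.31.1 were used.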

Additional observations from a re-analysis of the deposited data

Results flagged for a closer look

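The log2 ratio of peak density in very long genes to that in other protein-coding genes had opposite signs in some groups, in every list of each. Without RNase R it was -0.67 and -0.61 in the KO lists and 0.27 and 0.0046 in the WT lists. The exact permutation test of this difference gave p = 0.333, the smallest that 2 lists against 2 allow. In WT cells it was 0.27 and 0.0046 in RNaseR- and -1.08 and -0.26 in RNaseR+ (exact permutation p = 0.333), where the RNaseR+ values rest on 10 and 21 member peaks. The value of 0.0046 is very small, and 20 of the 147 member peaks of that list lay in Gm20388. That model holds 71 other protein-coding genes, so the sign in WT RNaseR- replicate 2 rests on it.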

How the results depend on the processing

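Of 225 values of 19 results under alternatives, 214 kept their direction and their side of the threshold, or for counts stayed within 1.5 times; the KO/WT and RNase R contrasts among them could not pass the threshold under any setting, so for them only the direction is informative. That threshold is an unadjusted p of 0.05. As reported, the log2 density ratio of very long to other genes passed it (exact sign-flip p = 0.0469), but not after adjustment (adjusted p = 0.0926). The ratio missed the threshold when only genes over 1 Mb counted as very long (-0.33, p = 0.219 by the exact test). Leaving out each list in turn it ran from -0.53 to -0.34 (exact p from 0.0312 to 0.0938), and missed it in 6 of 8 cases. With peaks of both replicates only it was -0.81, and without the gene models that hold 5 or more other coding genes it was -0.51. The KO minus WT difference in that ratio turned from -0.33 to 0.12 when covered kb replaced peak numbers. The strand difference of purine runs ran from -1.65 to 2.68 percentage points without each list in turn, below 0 without WT RNaseR+ replicate 2. With peaks of both replicates only, KO was above WT for ciR-loops in 75 of 78 very long genes (96.2%, beside 95.1% of all genes) and WT above KO in 2 (2.56%, beside 2.24%), Atp8a2 and Fam155a. With the replicate block the values were unchanged. The exact p rose to 0.5 for the KO/WT ratio in each treatment, and to 0.125 for both treatments together and for RNase R. It rose to 0.375 for each difference in the density ratio. Whether same-numbered lists are paired is not known, and none of these contrasts could pass 0.05 with or without the block. With 2 lists a group no contrast within a treatment can reach p below 0.333, and the WT RNaseR+ lists hold too few member peaks for firm shares. The causes of these changes were not tested.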
